A study of Homo sapiens with 12 samples.

Results

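The genes examined were 9 enzymes of serine synthesis and folate-dependent one-carbon metabolism, chosen by name: PHGDH, PSAT1, PSPH, SHMT1, SHMT2, MTHFD1, MTHFD2, MTHFD1L and ALDH1L2. They are 9 of the 44659 genes listed in the count table, and all 9 were among the 15916 genes with enough counts to test. RNA came from A375, a human melanoma line driven by mutant BRAF, in 4 groups of 3 libraries each. Controls (CC) had 72 h in DMSO, the solvent of the drugs. Treated cells (TC) had 72 h in 500 nM vemurafenib, a BRAF inhibitor, plus 500 nM cobimetinib, a MEK inhibitor (together, MAPKi), and were collected at day 0. Persister cells (PC) and recovered cells (RC) received the same MAPKi exposure and were then washed and kept in drug-free medium for 2 days and 9 days. All groups share a single cell line and a DMEM medium that, per the labels, held the amino acids other than glutamine, which was added. Per the labels, RNA came from cytoplasmic fractions and was depleted of ribosomal RNA. The CC libraries are from day 0, and no DMSO culture from a later day was used here.

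Cells make serine from the glycolytic intermediate 3-phosphoglycerate in steps catalysed by PHGDH, PSAT1 and PSPH. Serine hydroxymethyltransferases, SHMT1 in the cytosol and SHMT2 in mitochondria, pass a carbon from serine to tetrahydrofolate and release glycine, and the MTHFD enzymes and ALDH1L2 carry that carbon on towards formate, purines, thymidylate and NADPH. Several of these genes are textbook targets of ATF4, the transcription factor of the amino acid stress response, and tumour cells, melanoma included, often express PHGDH and MTHFD2 highly.

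In CC the 9 enzymes together held between 1536 and 2108 CPM (a gene's counts as a share of its library's TMM-scaled total). Their summed level was between 278 and 297 CPM in TC, between 295 and 303 CPM in PC and between 1090 and 1392 CPM in RC. The sums were at 15.2% ± 0.504 of the CC mean in TC, 15.8% ± 0.203 in PC and 65.5% ± 7.97 in RC (mean ± SD, n = 3 libraries). The order of groups was therefore CC, then RC, then TC and PC, and no TC or PC sum reached a CC or RC sum. In these bulk samples, fewer cells with a transcript and less of it per cell cannot be told apart.

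**Figure D1:**
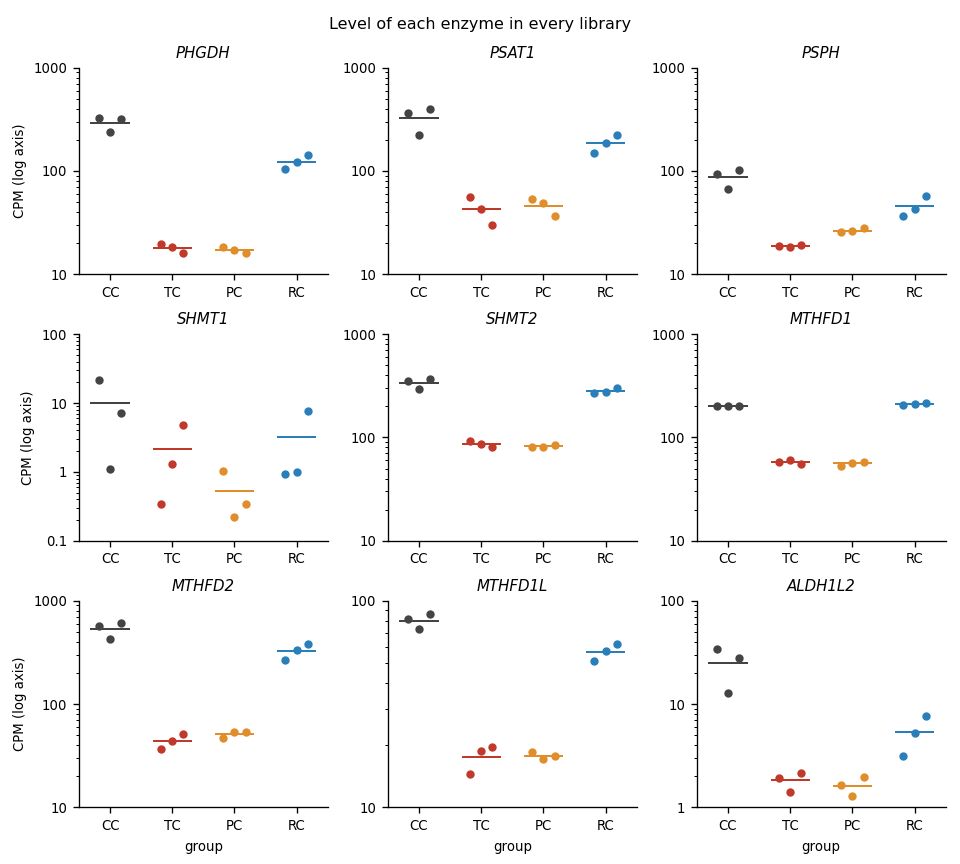
Level of each of the 9 enzymes in every library, in CPM on log axes that differ between panels, with the 3 replicates of a group drawn from left to right and a line at the group mean. For 8 of the 9 genes the TC and PC libraries sat below every CC and RC library, while SHMT1 ranged from 0.217 to 21.4 CPM with overlap between groups.

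Serine synthesis began with PHGDH, the dehydrogenase that commits 3-phosphoglycerate to the pathway (chr1:119648411-119744218, plus strand, GENCODE v44 on hg38). PHGDH stood at 322, 239 and 316 CPM in CC replicates 1 to 3 and at 19.5, 18.3 and 15.9 CPM in TC. In PC it was measured at 18.2, 17.3 and 15.9 CPM, and in RC at 104, 123 and 142 CPM. The TC and PC values overlapped each other, the RC values lay between them and CC, and the 3 CC libraries lay above all others. PSAT1, the aminotransferase of the next step (chr9:78297125-78330093, plus strand), was at 367, 221 and 394 CPM in CC and at 55.8, 42.3 and 29.7 CPM in TC. Its PC values were 52.8, 48.5 and 36.5 CPM and its RC values 149, 188 and 222 CPM, so that the highest RC library slightly exceeded the lowest CC library. PSPH, the phosphatase that releases serine (chr7:56011051-56051604, minus strand), was at 92.2, 66.1 and 101 CPM in CC and at 18.8, 18.3 and 19.1 CPM in TC. PSPH was at 25.4, 26.2 and 27.7 CPM in PC and at 36.6, 42.6 and 56.8 CPM in RC, and its 4 groups did not overlap.

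Promoters of these enzymes are shown with 3 short motifs, as a description. Of the 9 genes, 6 had a promoter in the RefSeq table used here (GRCh38.p14, 250 bases before to 50 after an annotated start, 9 entries in all). Capitals mark CCAAT (the NF-Y core), CACGTG (an E-box, read by MYC and related factors) and TGATGNAA (the core of the composite element read by ATF4 with a C/EBP partner), each searched on both strands, and no marked motif overlapped another. Across all 35116 promoters of the table, 34.6% held CCAAT, 7.26% held CACGTG and 3.62% held TGATGNAA. The serine synthesis promoters are PHGDH (chr1:119711684-119711983, plus strand) and PSAT1 (chr9:78296875-78297174, plus strand), whose marked letters are CCAAT.
PHGDH: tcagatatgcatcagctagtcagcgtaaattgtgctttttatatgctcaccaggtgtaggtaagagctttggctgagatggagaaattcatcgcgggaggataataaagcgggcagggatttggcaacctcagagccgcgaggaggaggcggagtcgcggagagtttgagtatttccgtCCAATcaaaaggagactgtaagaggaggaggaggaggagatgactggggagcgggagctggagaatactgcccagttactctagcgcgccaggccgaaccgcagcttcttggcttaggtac
PSAT1: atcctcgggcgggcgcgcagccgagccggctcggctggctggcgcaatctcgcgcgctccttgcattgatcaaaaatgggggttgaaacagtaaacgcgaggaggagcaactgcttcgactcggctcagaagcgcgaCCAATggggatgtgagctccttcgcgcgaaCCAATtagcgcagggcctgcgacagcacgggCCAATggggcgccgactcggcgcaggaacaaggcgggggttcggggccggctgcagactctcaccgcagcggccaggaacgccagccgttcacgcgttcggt

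The mitochondrial arm comprises SHMT2, MTHFD2, MTHFD1L and ALDH1L2. SHMT2, which splits serine to glycine and a one-carbon unit in mitochondria (chr12:57229573-57234935, plus strand), was at 349, 297 and 366 CPM in CC and at 91.7, 85.5 and 80.7 CPM in TC. It was at 81.0, 81.0 and 83.9 CPM in PC, and in RC at 270, 277 and 300 CPM, where the highest library slightly exceeded the lowest CC library. MTHFD2, the mitochondrial methylenetetrahydrofolate dehydrogenase and cyclohydrolase (chr2:74186172-74217565, plus strand), was at 566, 424 and 606 CPM in CC and at 36.4, 43.5 and 50.9 CPM in TC. MTHFD2 was at 46.9, 54.0 and 53.8 CPM in PC and at 269, 333 and 378 CPM in RC, below every CC library. MTHFD1L, which releases formate from mitochondrial formyl-tetrahydrofolate (chr6:150865679-151101887, plus strand), was at 81.4, 73.1 and 86.0 CPM in CC and at 14.5, 18.7 and 19.5 CPM in TC. Its values were 18.4, 17.2 and 17.6 CPM in PC and 51.3, 57.0 and 61.8 CPM in RC, again below every CC library. ALDH1L2, the mitochondrial formyl-tetrahydrofolate dehydrogenase that yields NADPH (chr12:105019784-105107643, minus strand), was at 33.9, 12.6 and 28.0 CPM in CC and at 1.92, 1.41 and 2.15 CPM in TC. ALDH1L2 was at 1.65, 1.28 and 1.94 CPM in PC and at 3.13, 5.27 and 7.60 CPM in RC. Its RC libraries lay between those of TC and PC and those of CC.

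The promoters of the mitochondrial enzymes were found for MTHFD2 (chr2:74198365-74198664, plus strand) and MTHFD1L (chr6:150866236-150866535, plus strand). The MTHFD1L sequence held all 3 motifs, namely, from the 5′ end, the CCAAT box, then the E-box CACGTG, then the element spelt TGATGCAA. It is 1 of 4 MTHFD1L entries, of which 3 overlapped each other and held these same motifs and the fourth held none. Among the 9 entries of the members, 3 held TGATGNAA (those 3 overlapping entries of MTHFD1L) and 4 held CACGTG (the same 3 and MTHFD1). In MTHFD2 the marked letters are CCAAT.
MTHFD2: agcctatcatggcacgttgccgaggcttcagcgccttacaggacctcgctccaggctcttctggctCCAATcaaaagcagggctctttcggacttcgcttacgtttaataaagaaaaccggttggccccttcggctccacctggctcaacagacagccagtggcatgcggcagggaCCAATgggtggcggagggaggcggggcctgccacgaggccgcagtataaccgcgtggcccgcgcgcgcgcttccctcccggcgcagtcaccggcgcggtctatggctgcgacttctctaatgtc
MTHFD1L: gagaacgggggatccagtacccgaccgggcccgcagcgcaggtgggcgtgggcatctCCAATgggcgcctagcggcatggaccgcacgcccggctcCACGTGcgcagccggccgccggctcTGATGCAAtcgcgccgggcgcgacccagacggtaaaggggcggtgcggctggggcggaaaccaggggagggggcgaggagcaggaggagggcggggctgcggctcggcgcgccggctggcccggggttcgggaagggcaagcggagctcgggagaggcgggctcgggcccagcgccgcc

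The cytosolic arm comprises MTHFD1 and SHMT1. MTHFD1, the trifunctional enzyme that interconverts one-carbon folates in the cytosol (chr14:64388031-64463457, plus strand), was at 203, 202 and 204 CPM in CC and at 58.4, 60.0 and 55.5 CPM in TC. It was at 53.4, 57.1 and 57.3 CPM in PC and at 206, 213 and 216 CPM in RC, where all 3 libraries lay just above the CC libraries. Replicates of MTHFD1 were unusually close: its highest and lowest CC libraries differed 1.01-fold, where the median gene differed 1.25-fold in CC, and its fitted biological coefficient of variation (0.0550) stood at the 0.867th percentile of the tested genes. SHMT1, the cytosolic hydroxymethyltransferase (chr17:18327860-18363563, minus strand), was at 21.4, 1.08 and 7.13 CPM in CC and at 0.337, 1.30 and 4.85 CPM in TC. SHMT1 was at 1.02, 0.217 and 0.347 CPM in PC and at 0.935, 0.979 and 7.73 CPM in RC. In every group a single library carried most of the SHMT1 counts, and its coefficient of variation (0.898) stood at the 99.0th percentile.

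The promoters of the cytosolic enzymes were found for MTHFD1 (chr14:64388103-64388402, plus strand) and SHMT1 (chr17:18363501-18363800, minus strand). MTHFD1 held CACGTG close to the start and CCAAT once on each strand, and SHMT1 held CCAAT once on each strand. The capitals ATTGG are CCAAT read on the other strand.
MTHFD1: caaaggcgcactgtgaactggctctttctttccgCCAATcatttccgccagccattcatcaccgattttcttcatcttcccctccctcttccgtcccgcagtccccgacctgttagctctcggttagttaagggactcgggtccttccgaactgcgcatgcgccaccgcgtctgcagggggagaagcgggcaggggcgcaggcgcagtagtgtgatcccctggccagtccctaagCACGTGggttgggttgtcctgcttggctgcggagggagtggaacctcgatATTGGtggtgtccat
SHMT1: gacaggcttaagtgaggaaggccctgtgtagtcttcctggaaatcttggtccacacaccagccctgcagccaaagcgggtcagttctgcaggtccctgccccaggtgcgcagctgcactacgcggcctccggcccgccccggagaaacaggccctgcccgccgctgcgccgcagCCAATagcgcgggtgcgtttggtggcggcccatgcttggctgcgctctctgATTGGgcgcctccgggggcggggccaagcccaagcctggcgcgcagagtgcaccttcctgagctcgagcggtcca

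Of the 9 promoter entries, 8 held CCAAT, among them the overlapping MTHFD1L entries, which share the same box. The motif matches are letters in a window and say nothing of binding.

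Levels can be set against each other between genes only per length of transcript, taken here as the canonical transcript of GENCODE v44. On the scale of CPM per kilobase, PHGDH (157 ± 24.8, SD, n = 3), SHMT2 (156 ± 16.7), PSAT1 (148 ± 42.2) and MTHFD2 (121 ± 21.7) led in CC, and each lay within the spread of its neighbour in that order. MTHFD1 (64.4 ± 0.213), PSPH (43.8 ± 9.20) and MTHFD1L (23.2 ± 1.90) followed in CC, each beyond the spread of the gene above it. SHMT1 (3.91 ± 4.14) and ALDH1L2 (3.34 ± 1.47) were lowest in CC and were not separated by their spread. In TC, SHMT2 alone led at 39.9 ± 2.54 CPM per kilobase, followed by PSAT1 (19.3 ± 5.93) and MTHFD1 (18.4 ± 0.719), which overlapped. PHGDH, at 9.59 ± 0.964 CPM per kilobase in TC, lay between MTHFD2 (9.90 ± 1.64) and PSPH (9.50 ± 0.204) within their spread, and ALDH1L2 was at 0.245 ± 0.0510. In PC, SHMT2 led again, followed by PSAT1 (20.8 ± 3.82) and MTHFD1 (17.7 ± 0.703), which overlapped. PSPH (13.4 ± 0.600), MTHFD2 (11.7 ± 0.921) and PHGDH (9.17 ± 0.638) came next and stood apart from each other by more than their spread. In RC, SHMT2 led at 131 ± 7.42 CPM per kilobase, and PSAT1 (84.4 ± 16.5), MTHFD2 (74.2 ± 12.5), MTHFD1 (67.1 ± 1.49) and PHGDH (65.8 ± 10.3) each lay within the spread of the next. PHGDH thus shared the top of the order with SHMT2 in CC and stood below SHMT2 by more than the spread in TC, PC and RC.

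TC was set against CC to ask what 72 h of MAPKi did to these enzymes. Of the 9 genes, 8 were lower at an adjusted p under 0.05 (edgeR quasi-likelihood test, Benjamini-Hochberg over all 15916 genes), where 34.7% of all tested genes were called lower and 33.2% higher. The same 8 were also lower beyond 1.5-fold, which 19.3% of all tested genes were. The median log2 fold change of the 9 was -2.21, against -0.02 over all tested genes. PHGDH fell most among the called genes, 16.4-fold (log2 fold change -4.03 ± 0.15, SE, adjusted p = 5.51e-10). ALDH1L2 fell 13.5-fold (-3.76 ± 0.40, adjusted p = 4.06e-06) and MTHFD2 12.2-fold (-3.61 ± 0.17, adjusted p = 4.14e-09). PSAT1 fell 7.70-fold (-2.94 ± 0.27), PSPH 4.61-fold (-2.21 ± 0.17) and MTHFD1L 4.56-fold (-2.19 ± 0.11). SHMT2 fell 3.93-fold (-1.97 ± 0.08) and MTHFD1 3.50-fold (-1.81 ± 0.05), the smallest changes among the called genes. Adjusted p-values of these last 5 genes ran from 1.38e-10 to 1.14e-06. In all 8 genes the 3 TC libraries lay below the 3 CC libraries. The share of all tested genes with such a separation was not determined, here or in the other comparisons. SHMT1 had a log2 fold change of -2.17 with a 95% interval from -4.66 to 0.32 (adjusted p = 0.110) and overlapping libraries. The SHMT1 call rested on single libraries, with an adjusted p of 0.0470 without CC replicate 2 and 0.0375 without TC replicate 3.

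The comparison of PC with CC used the same CC libraries and asked what was left 2 days after the drugs were removed. All 9 genes were lower in PC, also beyond 1.5-fold. Across all tested genes 35.9% were called lower and 33.2% higher, and 19.9% were lower beyond 1.5-fold. The median log2 fold change of the 9 was -2.83, against -0.04 over all tested genes. PHGDH was 17.1-fold lower (-4.10 ± 0.15), ALDH1L2 15.3-fold (-3.93 ± 0.40), MTHFD2 10.3-fold (-3.37 ± 0.17) and PSAT1 7.12-fold lower (-2.83 ± 0.27). MTHFD1L (4.52-fold), SHMT2 (4.11-fold), MTHFD1 (3.63-fold) and PSPH (3.27-fold) had the smaller changes. Adjusted p-values of these 8 genes ran from 9.21e-11 to 2.81e-06 in edgeR. SHMT1 had a log2 fold change of -4.24 ± 1.29 (adjusted p = 0.0111), and this call was lost without CC replicate 1 (-2.98, adjusted p = 0.0551).

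PC and TC were then compared directly. PSPH was the only one of the 9 genes that differed, 1.41-fold higher in PC (log2 fold change 0.50 ± 0.17, edgeR adjusted p = 0.0473), where 12.2% of all tested genes were called higher and 12.5% lower. All 3 PC libraries of PSPH lay above the 3 TC libraries. The PSPH call was lost without CC replicate 1 (adjusted p = 0.0564), TC replicates 1 (0.101), 2 (0.120) or 3 (0.0870), PC replicates 1 (0.0786), 2 (0.1001) or 3 (0.1301), or RC replicate 2 (0.0591). For the other genes the 95% interval of the log2 difference gives the change that these libraries leave possible. It ran from -0.17 to 0.07 for MTHFD1, -0.25 to 0.11 for SHMT2, -0.23 to 0.26 for MTHFD1L and -0.37 to 0.24 for PHGDH. The interval was wider for MTHFD2 (-0.11 to 0.59), PSAT1 (-0.45 to 0.67) and ALDH1L2 (-1.03 to 0.68). For SHMT1 it ran from -4.76 to 0.62.

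RC was also set against PC, which compares 9 with 2 days without drug. Of the 9 genes, 8 were higher in RC than in PC (35.7% of all tested genes were called higher and 34.2% lower), and 7 of them beyond 1.5-fold (20.2% of all tested genes). PHGDH rose 7.18-fold (log2 fold change 2.84 ± 0.14, edgeR adjusted p = 5.27e-09), MTHFD2 6.33-fold (2.66 ± 0.17) and PSAT1 4.05-fold (2.02 ± 0.26). MTHFD1 rose 3.78-fold (1.92 ± 0.05), SHMT2 3.44-fold (1.78 ± 0.08), ALDH1L2 3.29-fold (1.72 ± 0.38) and MTHFD1L 3.20-fold (1.68 ± 0.11). Adjusted p-values of these 7 genes ran from 8.97e-11 to 0.00155, and all their RC libraries lay above all PC libraries. PSPH rose least, 1.72-fold (0.78 ± 0.16, adjusted p = 0.00102), and was called beyond 1.5-fold only without RC replicate 1 (adjusted p = 0.0296). SHMT1 differed by 2.63 on the log2 scale with a 95% interval from -0.07 to 5.33 (adjusted p = 0.0764), and it was called when PC and RC were fitted alone (edgeR adjusted p = 0.0338).

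The comparison of RC with CC, which shares the CC libraries with those of TC and PC, asked how far each enzyme had returned after 9 days. Since CC is from day 0, past drug exposure and the added days in culture cannot be told apart here. Of the 9 genes, 7 were still lower in RC, where 19.1% of all tested genes were called lower and 18.2% higher. Beyond 1.5-fold, 2 were lower, PHGDH and ALDH1L2, against 2.52% of all tested genes. PHGDH stood at 42.0% of CC (log2 fold change -1.25 ± 0.13, edgeR adjusted p = 5.11e-05) and ALDH1L2 at 21.6% (-2.21 ± 0.37, adjusted p = 0.000727). In a fit of CC and RC alone the test of ALDH1L2 against 1.5-fold just missed the threshold (adjusted p = 0.0526). PSPH stood at 52.5% of CC (-0.93 ± 0.16, adjusted p = 0.000944), MTHFD2 at 61.4% (-0.70 ± 0.16, adjusted p = 0.00439) and MTHFD1L at 70.8% (-0.50 ± 0.11, adjusted p = 0.00362). The 3 RC libraries of these 5 genes lay below the 3 CC libraries.

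PSAT1 and SHMT2 were called lower in RC by a narrower margin, and their RC and CC libraries overlapped. PSAT1 stood at 56.9% of CC (log2 fold change -0.81 ± 0.25, edgeR adjusted p = 0.0245), and the call was lost without CC replicates 1 (0.0815) or 3 (0.0774) or RC replicates 1 (0.0976) or 2 (0.0664). SHMT2 stood at 83.7% of CC (-0.26 ± 0.08, adjusted p = 0.0261), and the call was lost without CC replicates 1 (0.0795) or 3 (0.0791) or RC replicates 1 (0.0994) or 2 (0.0894). It was also lost with unadjusted library totals (0.0548) and in a fit of CC and RC alone (0.0887). MTHFD1 was at 104% of CC with a log2 difference of 0.06 (95% interval from -0.06 to 0.17, adjusted p = 0.408), so a return short of CC by more than 0.06 on the log2 scale lies outside that interval. SHMT1 had a log2 difference of -1.61 with an interval from -4.04 to 0.82 (adjusted p = 0.279). The median over the 9 was -0.81, against 0.00369 over all tested genes.

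**Figure D2:**
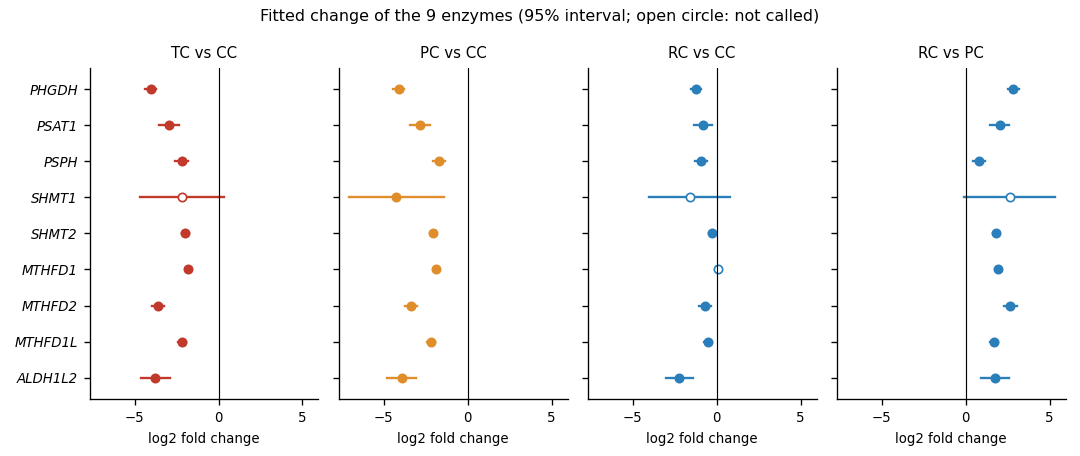
Fitted log2 fold change of the 9 enzymes in 4 comparisons, with 95% intervals from the edgeR fit; filled circles were called at an adjusted p under 0.05 and open circles were not. In TC and PC every point lay at -1.71 or below, and in RC against CC the points ran from -2.21 for ALDH1L2 to 0.06 for MTHFD1.

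The replicates of a group moved together across these genes. CC replicate 2 was the lowest CC library for all 9 genes, and RC replicate 1 was the lowest and RC replicate 3 the highest RC library for all 9. In TC and PC no library was lowest or highest for more than 5 of the 9. The lists of other ATF4 targets and of proliferation genes were summed in the same libraries. For the other ATF4 targets, CC replicate 2 was again lowest (3054 CPM against 4570 and 5142), RC replicate 1 lowest (2084 CPM) and RC replicate 3 highest (2786 CPM). For proliferation, CC replicate 2 was the highest CC library (2379 CPM against 2013 and 2026), and RC replicate 1 was again the lowest RC library (3165 CPM against 3290 and 3286). Without CC replicate 2, the RC against CC change of PHGDH was -1.38, of MTHFD2 -0.84 and of PSPH -1.09, and PSPH then passed the 1.5-fold test (adjusted p = 0.0128), as it did without RC replicate 3 (adjusted p = 0.0234). The part of these library differences in the results was not tested further.

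Ratios within a library compare enzymes free of library scaling. The log2 ratio of PSAT1 to PHGDH counts was 0.13 ± 0.22 in CC, 1.21 ± 0.31 in TC, 1.41 ± 0.18 in PC and 0.59 ± 0.06 in RC (SD, n = 3). Every TC, PC and RC library lay above every CC library, and the RC libraries lay between those of CC and those of TC and PC. Each of these differences from CC reached an exact permutation p of 0.1 (two-sided), the smallest that 3 against 3 libraries allow, and 0.15 after adjustment over the 12 ratio comparisons. The log2 ratio of MTHFD2 to MTHFD2L, its close homologue, went from 5.78 ± 0.43 in CC to 2.25 ± 0.22 in TC, 2.59 ± 0.12 in PC and 5.13 ± 0.22 in RC. MTHFD2L itself was not called in any comparison with CC (log2 fold changes -0.08, -0.17 and -0.06 in TC, PC and RC, edgeR), so the pair differed in response by more than 3 on the log2 scale in TC and PC (exact permutation p = 0.1 each, adjusted 0.15). In RC the difference of -0.65 had an exact permutation p of 0.2.

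The log2 ratio of MTHFD1L to MTHFD1, mitochondrial to cytosolic, was -1.34 ± 0.12 in CC, -1.73 ± 0.26 in TC, -1.65 ± 0.11 in PC and -1.90 ± 0.10 in RC. It was lower than in every CC library in all 9 TC, PC and RC libraries (exact permutation p = 0.1 each, adjusted 0.15). RC had the lowest mean of the 4 groups, with MTHFD1 at 104% of CC there and MTHFD1L at 70.8%. The ratio of SHMT2 to SHMT1 had SDs up to 2.02 within a group and exact permutation p-values from 0.3 to 0.9, and was not informative.

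**Figure D3:**
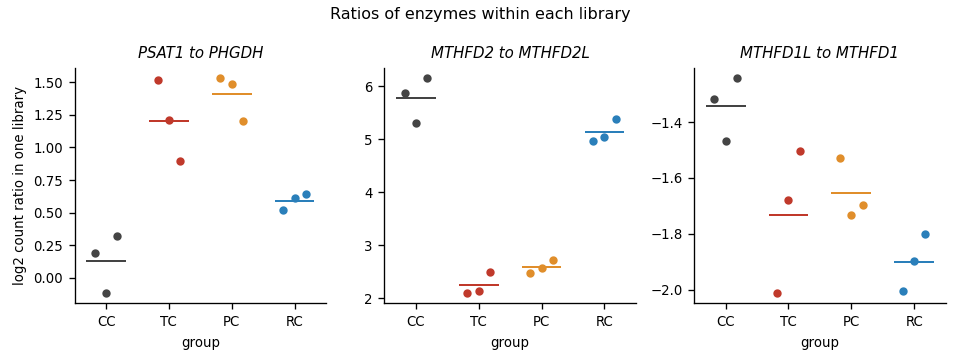
Log2 ratio of counts of a pair of enzymes within each library (prior count of 2), with the 3 replicates of a group and a line at their mean, on axes that differ between panels. The ratio of PSAT1 to PHGDH rose from a mean of 0.13 in CC to 1.21 in TC and 1.41 in PC, while that of MTHFD2 to MTHFD2L fell from 5.78 to 2.25 and 2.59.

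SHMT1 needs separate mention because of its erratic counts. Its highest and lowest libraries differed 19.8-fold in CC, 14.4-fold in TC, 4.70-fold in PC and 8.27-fold in RC. The table also lists a numbered copy, SHMT1_1, with 298 counts over all libraries, 13.9% of those of SHMT1, and adding it to SHMT1 changed no call of SHMT1. Neighbouring genes on chromosome 17, picked after their values were seen, were erratic too. FLII (chr17:18244815-18258738, minus strand), an actin-remodelling protein, differed up to 14.7-fold between replicates in TC, and TOP3A (chr17:18271428-18315007, minus strand), a DNA topoisomerase, up to 7.54-fold in PC. LLGL1, beside FLII, and SMCR8, whose annotated end overlaps that of SHMT1, lie on the plus strand and differed at most 1.25-fold and 1.66-fold. The contrast did not hold in every group: in CC, TOP3A differed 1.60-fold and SMCR8 1.66-fold, and in RC, FLII differed 2.97-fold. A tie to strand was not tested. SHMT1, FLII and TOP3A peaked in the same library in TC (replicate 3), PC (replicate 1) and RC (replicate 3), while in CC SHMT1 was highest in replicate 1 and the other two in replicate 3. How reads aligning to more than 1 place were counted is not given in the sources used here, and its part in these values was not tested.

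**Figure D4:**
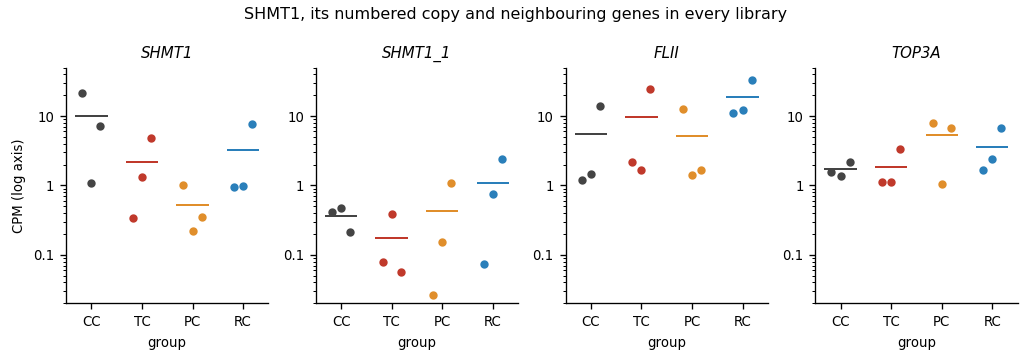
CPM of SHMT1, of its numbered copy SHMT1_1 and of the neighbouring genes FLII and TOP3A in every library, on a shared log axis, with a line at each group mean. Single libraries stand far from the others of their group, such as SHMT1 at 21.4 CPM in CC replicate 1 against 1.08 CPM in CC replicate 2.

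Genes around the 9 enzymes were counted from lists of the folate cycle, glycine cleavage, methionine cycle and transsulfuration, and serine transport and use. Unless stated otherwise, values in these lists are log2 fold changes against CC from the edgeR fit. A gene described as higher, lower, risen or fallen passed an adjusted p of 0.05. The counts of this and the later lists need the shares of all 15916 tested genes beside them. For TC, 34.7% of those genes were called lower, with 33.2% called higher. The PC shares were 35.9% lower, with 33.2% higher. RC had smaller shares, 19.1% lower with 18.2% higher. Whether a list departed from these shares was not tested. Of 14 tested folate cycle genes, 7 were lower and 4 higher in TC, 8 lower and 3 higher in PC, and 5 higher in RC, with medians of -0.26, -0.32 and 0.06 on the log2 scale. TYMS (thymidylate synthase) was lower in TC (-2.71), as was GGH (gamma-glutamyl hydrolase, -1.84). In PC, GART and ATIC of purine synthesis were lower (-1.40 and -1.20), while TYMS was 2.12 above TC on the log2 scale. In RC, TYMS was above CC (0.87), as was the reduced folate carrier SLC19A1 (2.19), while 7 of the 9 enzymes were below it. FPGS, which adds glutamates to folates, rose in TC and PC (0.38 and 0.20). SLC19A1 rose in TC (1.37), and the proton-coupled folate transporter SLC46A1 rose in PC (0.31).

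Of 3 tested glycine cleavage genes, GLDC, the glycine decarboxylase, was higher in all 3 groups (0.75, 1.09 and 1.05) at between 2.26 and 4.83 CPM on average, while DLD, the shared lipoamide dehydrogenase, was lower in TC and PC (-0.33 and -0.81). Of 8 tested genes of the methionine cycle and transsulfuration, 6 were lower and 1 higher in TC and in PC, and 4 were lower in RC, with medians of -0.48, -0.71 and -0.49. CTH and CBS, which turn serine and homocysteine towards cysteine, were lower in TC (-3.08 and -2.61) and PC (-2.72 and -3.03), and RC was lower as well (-1.21 and -1.76). AHCY, which breaks down S-adenosylhomocysteine, was lower in TC and PC (-1.01 and -1.07). The S-adenosylmethionine synthase MAT2A was lower in RC (-0.84), and its partner subunit MAT2B was slightly higher in TC and PC (0.34 and 0.19).

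Of 11 tested genes of serine transport and use, 7 were lower and 2 higher in TC, 8 lower and 2 higher in PC, and 3 lower and 1 higher in RC, with medians of -0.47, -0.41 and -0.17. The neutral amino acid transporter SLC1A5 was lower in all 3 groups (-2.61, -2.62 and -0.83 in TC, PC and RC), and so was SARS1, which charges the serine tRNA (-1.44, -1.62 and -1.01). SLC1A4, another carrier of serine, was lower in PC and RC (-0.96 and -0.75). The mitochondrial serine carrier SFXN1 fell in TC (-0.77) and was above CC in RC (0.31), while its homologue SFXN3 rose in TC and PC (0.66 and 0.65), as did SDSL, a serine dehydratase-like gene (1.38 and 1.30).

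Among 8 genes named as regulators of these enzymes, 5 were lower and 2 higher in TC. In PC, 6 were lower and 2 higher, and in RC, 5 were lower and 1 higher. TRIB3, DDIT3 and CEBPB are counted here and again among the other ATF4 targets below. ATF4 mRNA stood at 614, 533 and 769 CPM in CC, 190, 184 and 196 CPM in TC, 222, 215 and 208 CPM in PC, and 292, 326 and 389 CPM in RC. The ATF4 groups did not overlap CC, and ATF4 was 3.37-fold lower in TC (log2 fold change -1.75 ± 0.13), 2.97-fold in PC (-1.57 ± 0.13) and 1.90-fold in RC (-0.93 ± 0.13, edgeR adjusted p = 0.000196). MYC was at 55.7, 51.6 and 70.0 CPM in CC, 4.33, 3.68 and 5.43 CPM in TC, 6.54, 6.41 and 5.99 CPM in PC, and 41.9, 41.8 and 41.8 CPM in RC. MYC was lower in TC and PC (-3.71 and -3.23) and stood at 70.8% of CC in RC. TRIB3 and DDIT3 are both induced in the amino acid stress response. They were lower in TC (-3.28 and -2.77), PC (-3.40 and -2.56) and RC (-1.55 and -1.42). CEBPB fell in PC (-2.59), and the kinase genes EIF2AK3 (0.51 and 0.42 in TC and PC) and EIF2AK4 (0.16, 0.24 and 0.21 in the 3 groups) were higher.

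Of 20 tested other ATF4 targets, 15 were lower and 2 higher in TC, 17 lower and 2 higher in PC, and 16 lower in RC. There VLDLR, a lipoprotein receptor, stood above CC by 0.31 with an adjusted p over the threshold. The medians were -1.94, -2.35 and -0.86. CHAC1, a glutathione-degrading enzyme, was lower in TC, PC and RC (-5.47, -5.40 and -1.46), and so was the hormone gene STC2 in TC (-3.81). NUPR1, a stress-response gene, was lower in PC and RC (-2.95 and -2.99). ATF3 and VLDLR went the other way in TC (3.15 and 0.94) and PC (3.20 and 0.75). Of 12 proliferation genes, all were lower in TC and PC, with medians of -3.72 and -1.81, and all were higher in RC (0.67). Between TC and PC, 10 of the 12 were higher in PC (median 2.01), where 12.2% of all tested genes were. TOP2A and AURKB, which act in chromosome segregation, were lower in TC (-4.52 and -4.56) and PC (-2.55 and -2.35), PLK1 was lower in TC (-4.26) and BUB1 in PC (-2.26), and CCNA2 (1.07), MKI67 (0.98) and BUB1 (0.97) were higher in RC. Of 9 MAPK output genes, 8 were lower in TC and in PC (medians -4.05 and -4.10) and 2 in RC (-0.22), SPRY2 (-0.77) and SPRY4 (-0.76). The RC libraries of SPRY4 overlapped those of CC (edgeR adjusted p = 0.0417). Its CC replicate 3 was at 720 CPM, against 342 and 270 CPM in CC replicates 1 and 2. SPRY4 was lower in TC and PC (-8.06 and -9.10), as were ETV4 (-6.49 and -7.07), DUSP6 in TC (-5.32) and ETV5 in PC (-5.55).

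**Figure D5:**
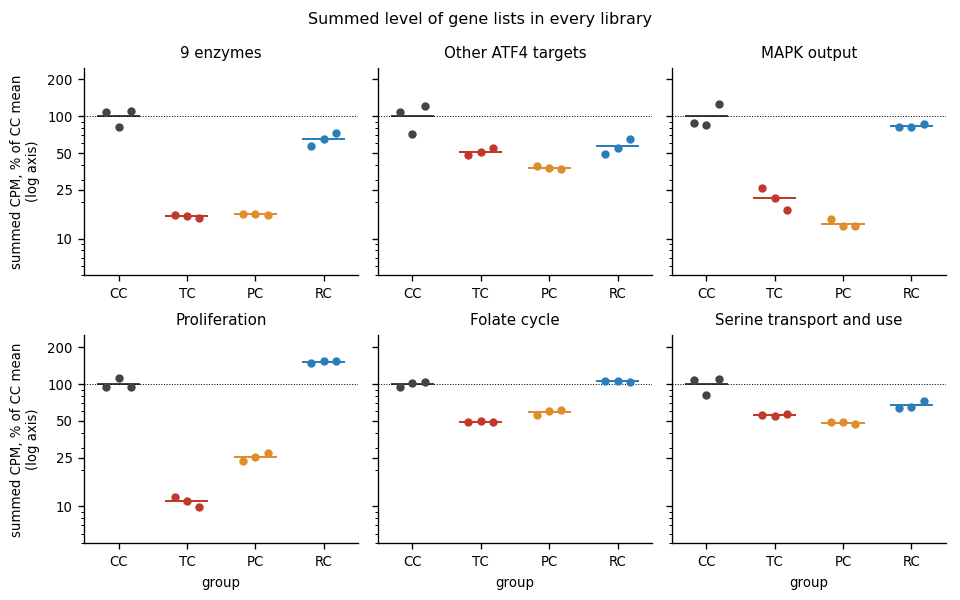
Summed CPM of 6 gene lists in every library as a percent of the CC mean, on a shared log axis with a dotted line at 100% and solid lines at the group means. The 9 enzymes stood at 15.2%, 15.8% and 65.5% in TC, PC and RC, proliferation genes at 11.0%, 25.4% and 152%, and MAPK output genes at 21.6%, 13.2% and 83.4%.

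The genes with profiles most like each enzyme were ranked by Pearson correlation of log2 CPM over the 12 libraries among 11906 well-expressed genes. The 12 points fall into a low pair of groups (TC and PC) and a high pair (CC and RC), so a high r mostly records that split, and it is given as a description. For PHGDH the nearest were ADSL, TFAP2B and YBX3 (r from 0.997 to 0.998), and 1612 genes had an r over 0.9. PSAT1 was nearest to NONO, L3MBTL4 and LOC105379562 (0.988 to 0.994), and PSPH to N4BP2L2, RPF2 and CTH (0.986 to 0.994). SHMT2 was nearest to OGFRL1, WDR3 and WDR12 (0.997 to 0.998) and MTHFD1 to NT5E, UCK2 and ETV4 (0.998 to 0.999). MTHFD2 was nearest to BCAT1, EIF4EBP1 and SFRP1 (0.993 to 0.995), MTHFD1L to CHRDL1, TMEM209 and PACSIN2 (0.992 to 0.994), and ALDH1L2 to SARS1, TRIB3 and IGF2BP2 (0.983 to 0.986). For SHMT1 no gene had an r over 0.9, and DHX37, ARFGEF2 and CARS1 were nearest (0.813 to 0.818). Between the other 8 enzymes r ran from 0.818 (ALDH1L2 with MTHFD1) to 0.996 (MTHFD1L with MTHFD2).

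Total counts ran from 37773389 to 55567097 per library, and at the lowest depth 3 counts, the upper limit that a count of 0 allows, are 0.0785 CPM, which covers counting error only. All 9 melanocyte lineage markers were tested, and their sum ran from 1832 to 2009 CPM in CC, from 7242 to 10452 in TC, from 3660 to 5273 in PC and from 1637 to 1697 in RC. Most of the higher sum in TC was DCT, a melanin-synthesis enzyme, with a mean of 6453 CPM against 407 in CC, and PMEL, a melanosome protein, with 616 against 70.1. S100B was lower in TC (log2 fold change -0.91), MITF, the lineage transcription factor, and S100A1 were not called there, and MITF was lower in PC (-0.71). Epithelial markers summed to at most 2.66 CPM and endothelial markers to at most 5.23 CPM. The leukocyte list summed to between 119 and 1065 CPM, almost all from CD68, a lysosomal protein, while CD3E had at most 0.0463 CPM. The part of these shifts in the enzyme results was not tested. The labels do not say that libraries of a group are separate cultures, so p-values measure the spread between these libraries.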

How the data were processed

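RNA sequencing of 12 libraries was analysed from raw read counts per gene. Per the labels and the study's methods, the authors trimmed reads with fastp 0.20.1, aligned them to GRCh38.p13 with HISAT2 2.2.1 and deposited counts made with HTSeq 0.13.5, with no normalization. Strand setting and the handling of reads aligning to several places are not given in the sources used here. The 15916 genes with a mean scaled count of at least 10 entered a quasi-likelihood fit over all 4 groups on TMM-scaled library sizes (edgeR 4.0.16, R 4.3.3). A gene was called at a two-sided adjusted p under 0.05, and beyond 1.5-fold by glmTreat. DESeq2 1.42.0, other scalings, filters, a replicate block and leaving out each library were alternatives. The fit was tested on simulated data, and no duplicate libraries were found. The 9 genes and all lists were chosen with earlier results of these data known. Genes of a list are named where they are among the 3 largest rises or falls against CC with a mean scaled count of at least 100, ATF4, MYC and MTHFD2L always. Some list genes that this rule selects are not reported here. FLII, TOP3A, LLGL1, SMCR8, CD68 and the single melanocyte markers were chosen after their values were seen. Gene coordinates and lengths come from GENCODE v44 (hg38), not the annotation used for counting.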

Additional observations from a re-analysis of the deposited data

Results flagged for a closer look

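Copies of the enzymes that the table lists as separate entries were not counted among the 9 genes, and some of their levels stood above every CC library by more than counting error. SHMT1_1, a numbered copy of SHMT1, was at 2.44 CPM in RC replicate 3 (129 counts), 1.09 CPM in PC replicate 3 (47 counts) and 0.748 CPM in RC replicate 2 (42 counts), against at most 0.474 CPM in CC. MTHFD2P1, a pseudogene of MTHFD2, was at 0.259 CPM in TC replicate 1 (10 counts), against at most 0.123 CPM in CC. The lower limit of SHMT1_1 was above the highest CC level in 2 of the 3 RC libraries and in 1 PC library. That of MTHFD2P1 was 0.124 CPM in 1 TC library, barely above the 0.123 CPM of CC. The counting error of the CC level itself was left out, and the libraries were found by scanning all TC, PC and RC libraries.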

How the results depend on the processing

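Over 19 alternatives for each of 45 fold changes (9 genes in 5 comparisons), 829 of 855 values kept their direction and their side of the threshold, 19 lost a call and 3 gained one. The 4 that changed sign were uncalled PC to TC differences, with ranges from -0.14 to 0.0086 for PHGDH, -0.10 to 0.36 for PSAT1 and -0.10 to 0.10 for MTHFD1L when single libraries were left out. With single libraries left out, between 0 and 1 of the 9 genes were higher in PC than in TC, and none of the other counts of called genes moved by over 1.5 times. With CC and RC fitted alone, 1 gene in place of 2 was lower in RC beyond 1.5-fold. For the folate cycle, 1 gene in place of 0 was lower in RC with DESeq2 and with a filter at a summed count of 2. The TC minus CC difference of the log2 ratio of SHMT2 to SHMT1 was 0.06, -0.026 with a prior count of 5, and between -0.90 and 1.12 with single libraries left out. Same-numbered libraries of different groups shared little (r of deviations from -0.04 to 0.16, over 0.1 in 2 of 18 pairs). For different numbers r ran from -0.12 to 0.04, over 0.1 in 0 of 36 pairs. Both pairs over 0.1 joined a TC with a PC library (0.155 for replicate 1 and 0.124 for replicate 3). These values do not settle whether the numbers pair the libraries. With the replicate number as a block, 8, 9 and 7 of the 9 genes were lower in TC, PC and RC, and no call of the 9 genes changed. Depth limits SHMT1 most, with 10 to 869 counts per library.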
